A study of Mus musculus with 19 samples.

Results

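Of the 17 RNA libraries of the study, 7 were leukemias made by the same retroviral FLT3-ITD transgene in marrow that either kept or had lost Dnmt3a, and these 7, chosen by their labelled genotype, are described here. The 4 libraries called KO-ITD had the genotype Mx1-cre+;Dnmt3af/f with MSCV_FLT3-ITD-GFP, and the 3 called WT-ITD had Mx1-cre+;Dnmt3a+/+ with the same transgene, on a C57BL/6 background. Donor marrow was transduced and put into lethally irradiated recipients, and CD4+CD8+ cells of donor origin were sorted, so every library is a sorted population from a transplanted mouse that still had its own non-hematopoietic tissue. All groups carried Mx1-cre, an inducible recombinase that acts in blood-forming and other cells, and the viral promoter, not the Flt3 locus, drove FLT3-ITD. The labels give no age, and no animal for a library, so p-values measure the spread between these libraries. The same sort from recipients of marrow with MSCV_GFP alone gave thymocytes with wild-type Dnmt3a (WT-GFP, n = 2) and deleted Dnmt3a (KO-GFP, n = 2), whose levels are set beside those of the leukemias. KO-GFP donors were ckit enriched, and no enrichment is given for WT-GFP.

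DNMT3A is a de novo DNA methyltransferase: it adds methyl groups to cytosine in CpG dinucleotides that carried none, and methylation at CpG-rich promoters is associated with silent genes. FLT3 is the receptor tyrosine kinase of early progenitors, and an internal tandem duplication (ITD) in it gives constant signalling through STAT5 and the RAS-MAPK pathway. Mutations of both genes occur together in human acute myeloid leukemia and in immature T cell leukemia. CD4+CD8+ (double-positive, DP) cells are the thymocyte stage that rearranges the T cell receptor alpha chain and awaits selection.

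Values are counts per 1000000 (CPM) of the deposited estimated counts, and values of single libraries stand in the order of their replicate numbers. WT-ITD 1 and 3 and KO-ITD 3 and 4 were collected from thymus, and WT-ITD 2 and KO-ITD 1 and 2 from marrow. All KO-ITD donors and the donor of WT-ITD 1 were enriched for Sca-1, a stem and progenitor cell antigen, whereas WT-ITD 2 came from ckit enriched and WT-ITD 3 from whole marrow. KO-ITD 3 and 4 belong to a later submission than the other 5. Total counts were between 16295347 and 20015543 in WT-ITD and between 7660541 and 18620967 in KO-ITD. Across genes, log2 CPM of WT-ITD 1 and 2 correlated at 0.977, and WT-ITD 3 correlated at 0.934 and 0.933 with them (genes are not independent replicates). KO-ITD 4 stood apart, with correlations of 0.807 to 0.887 with the other 6 libraries. The X-inactivation transcript Xist was at 0.049, 1.59 and 1233.6 CPM in WT-ITD and at 0, 2276, 0 and 0 CPM in KO-ITD, and among the leukemias the Y-linked Ddx3y was low only in these same libraries, WT-ITD 3 and KO-ITD 2. All 4 thymocyte libraries expressed Xist, so sex was not balanced between leukemias and thymocytes.

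Dnmt3a itself (mm9 chromosome 12, 3806980 to 3914443, plus strand) measured 180.2, 238 and 183 CPM in WT-ITD and at 65.8, 127, 68.1 and 53 CPM in KO-ITD. The 4 KO-ITD libraries lay below the 3 WT-ITD libraries, KO-ITD 2 nearest to them (log2 fold change -1.35, SE 0.25, adjusted p = 0.0353 by the quasi-likelihood test of edgeR and Benjamini-Hochberg adjustment over all genes, as for every adjusted p here). The count takes in exons outside the deleted part of the gene, so it checks the genotype labels only in part. The call did not pass in the fits without WT-ITD 1, WT-ITD 2, KO-ITD 1 or KO-ITD 3. In the thymocytes, 257 and 250.1 CPM (WT-GFP) and 207 and 144 CPM (KO-GFP) were measured.

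The sort markers were present in every leukemia. Cd4 was at 486, 676 and 701 CPM in WT-ITD and at 183, 312, 307 and 403 CPM in KO-ITD, and Cd8a, the alpha chain of the CD8 coreceptor, at 1182, 1408 and 1612 CPM in WT-ITD and at 833, 753, 306 and 234 CPM in KO-ITD. All KO-ITD libraries were below all WT-ITD libraries for both, and the differences did not pass over all genes (Cd4 log2 fold change -1.04, adjusted p = 0.0781; Cd8a -1.40, adjusted p = 0.154). Mouse Flt3, whose count need not report the transgene, was low in both groups, at 2.76, 1.53 and 7.49 CPM in WT-ITD and at 2.16, 1.26, 3.37 and 0.485 CPM in KO-ITD (adjusted p = 0.299).

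Loss of Dnmt3a within FLT3-ITD leukemia went with changes in 76 of 15508 genes tested (0.49%), of which 32 rose (0.206%) and 44 fell (0.284%). The changes were large: 73 of the 76 were at least 2-fold. Among the genes named by size of change, the largest rises were in the cytoskeletal adaptor Kank4, the receptor Pdgfrb, the ceramide synthase Cers4 and the calcium pump Atp2a1, and the largest falls in the PWWP-domain gene Mum1l1, the calcium channel Cacna1e, the splicing regulator Esrp1 and the transcription factor Sall3. The 2 groups of libraries did not overlap for 75 of the 76 genes, which selection by a test on these same libraries favours. Over all genes tested 752 (4.85%) were higher and 967 (6.24%) lower in all KO-ITD than in all WT-ITD libraries. At an unadjusted p below 0.05, 1891 genes were higher (12.2%) and 1253 lower (8.08%), and the median log2 fold change of all genes was 0.07.

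These calls take the spread from all 17 libraries of the study; edgeR on the 7 leukemias alone called 0 genes, with 1526 at an unadjusted p below 0.05. They also rest on WT-ITD 1 and 2: 13 genes passed without WT-ITD 1 and 10 without WT-ITD 2, and 13 with these alike libraries summed as 1, while 501 passed without WT-ITD 3, 641 without KO-ITD 2 and 131 without KO-ITD 4. By differences of mean log2 CPM, all 76 genes kept their sign among the thymus libraries and among the marrow libraries (1 WT-ITD against 2 KO-ITD). They also kept it against WT-ITD 1, the only WT-ITD library from Sca-1 enriched donors. For the 75 genes whose groups did not overlap, this was fixed in advance, since any subset of the libraries gives the same sign. In fits of the thymus libraries alone, 74 genes kept their sign and 1 gene passed. A gene that the low-count filter removed from a fit counts here as not kept. A term for collection tissue among the 7 leukemias gave 4 calls, 3 of them among the 76, the marrow libraries alone gave 878, 51 of them among the 76, and the first submission alone, Sca-1 enriched donors alone or a term for sex gave 0. DESeq2 on the same libraries called 1314 genes (910 higher and 404 lower), the 76 among them, and limma voom called 185, with 57 of the 76.

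**Figure D1:**
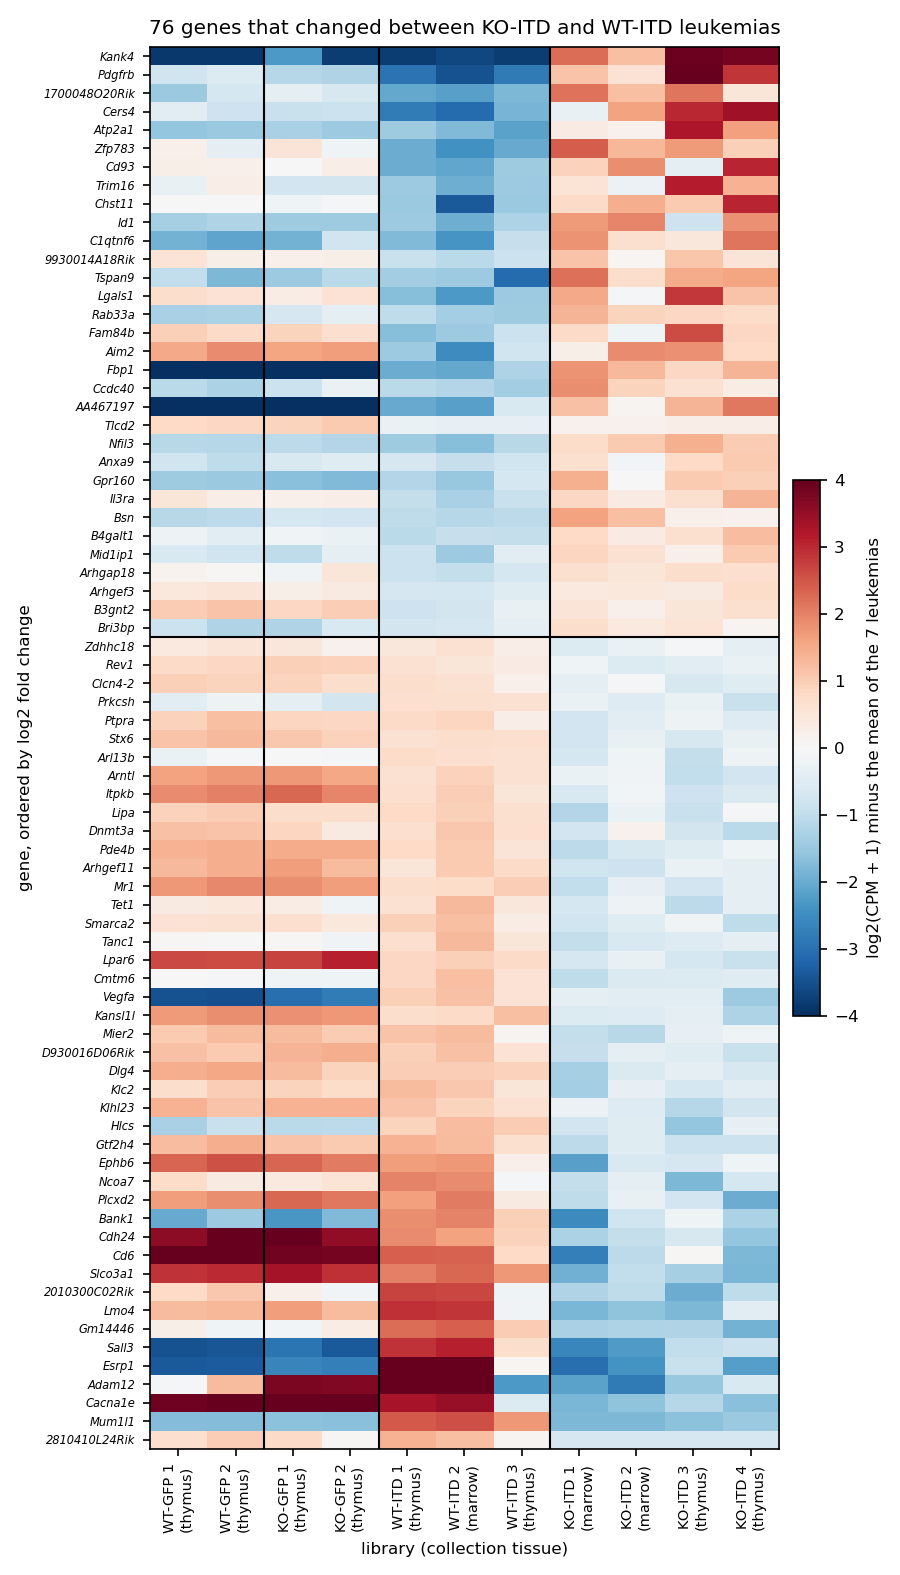
Heat map of the 76 genes that changed (rows, ordered by log2 fold change) in 4 thymocyte and 7 leukemia libraries (columns, with collection tissue); colour gives log2(CPM + 1) minus the mean of the 7 leukemias. KO-ITD and WT-ITD columns mostly have opposite colours, with exceptions such as WT-ITD 3 in Cacna1e, Lmo4 and Adam12 and KO-ITD 3 in Id1, and WT-ITD 3 is paler than WT-ITD 1 and 2 in many of the 44 genes that fell.

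A set of 9 genes passed in the full fit and in each of the 7 fits that left out a leukemia library. Nfil3 (chromosome 13, 53062578 to 53076408, minus strand), a basic leucine zipper transcription factor that governs innate lymphoid and NK cell development, was at 3.74, 2.94 and 4.91 CPM in WT-ITD and at 20.4, 25.2, 33.2 and 25 CPM in KO-ITD. The 4 KO-ITD libraries were close to each other and far above the WT-ITD range (log2 fold change 2.74, SE 0.31, adjusted p = 0.0036). It was at 4.92 and 4.82 CPM in WT-GFP thymocytes, at the WT-ITD level. B4galt1 (chromosome 4, 40751615 to 40801570, minus strand), a galactosyltransferase that extends N-glycans in the Golgi, was at 54.4, 61.3 and 59.4 CPM in WT-ITD and at 202, 145, 181 and 273 CPM in KO-ITD. It was the other rise of this set, again with no overlap (log2 fold change 1.78, SE 0.22, adjusted p = 0.00529).

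The other 7 of these genes fell. Cmtm6 (chromosome 9, 114640321 to 114658461, plus strand), a membrane protein that protects PD-L1 from breakdown, was at 371, 477 and 309.6 CPM in WT-ITD and at 101, 138, 141 and 147 CPM in KO-ITD. KO-ITD 1 was lowest and WT-ITD 2 highest (log2 fold change -1.55, SE 0.17, adjusted p = 0.0036). Gtf2h4 (chromosome 17, 35804684 to 35810627, minus strand) encodes a subunit of TFIIH, the general factor for transcription initiation and nucleotide excision repair, and was at 263, 239 and 156 CPM in WT-ITD and at 47.5, 70.2, 54.5 and 53.9 CPM in KO-ITD. WT-ITD 3 was the lowest of its group and still above every KO-ITD library (log2 fold change -1.95, SE 0.22, adjusted p = 0.0036). Stx6, a SNARE of the trans-Golgi network and endosomes, was at 214, 227 and 223 CPM in WT-ITD and at 82.2, 113, 89.4 and 112 CPM in KO-ITD (log2 fold change -1.16, SE 0.14, adjusted p = 0.00529).

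Dlg4 (chromosome 11, 69832107 to 69859033, plus strand), the PSD-95 scaffold known from synapses, was at 83.2, 83.8 and 80.4 CPM in WT-ITD and at 16.2, 28, 32 and 26.6 CPM in KO-ITD. The WT-ITD libraries hardly differed from each other, and the KO-ITD libraries were all lower (log2 fold change -1.68, SE 0.22, adjusted p = 0.00534). The cadherin gene Cdh24 was at 21.4, 17.6 and 10.497 CPM in WT-ITD and at 1.53, 2.14, 2.89 and 1.09 CPM in KO-ITD (log2 fold change -3.10, SE 0.39, adjusted p = 0.00534). Kansl1l, a relative of the NSL histone acetyltransferase subunit Kansl1, was at 78.5, 82.4 and 111 CPM in WT-ITD and at 32.6, 33, 36 and 19.8 CPM in KO-ITD (log2 fold change -1.58, SE 0.20, adjusted p = 0.00534), and its gene model overlaps that of Rpe on the opposite strand. Gm14446, a gene model of the interferon-induced Ifit cluster, was at 35.4, 39.7 and 14.6 CPM in WT-ITD and at 2.16, 2.31, 2.4 and 1.09 CPM in KO-ITD. It fell with the other 6 (log2 fold change -3.90, SE 0.48, adjusted p = 0.00529), but close paralogs lie beside it, so its reads may be shared among them.

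**Figure D2:**
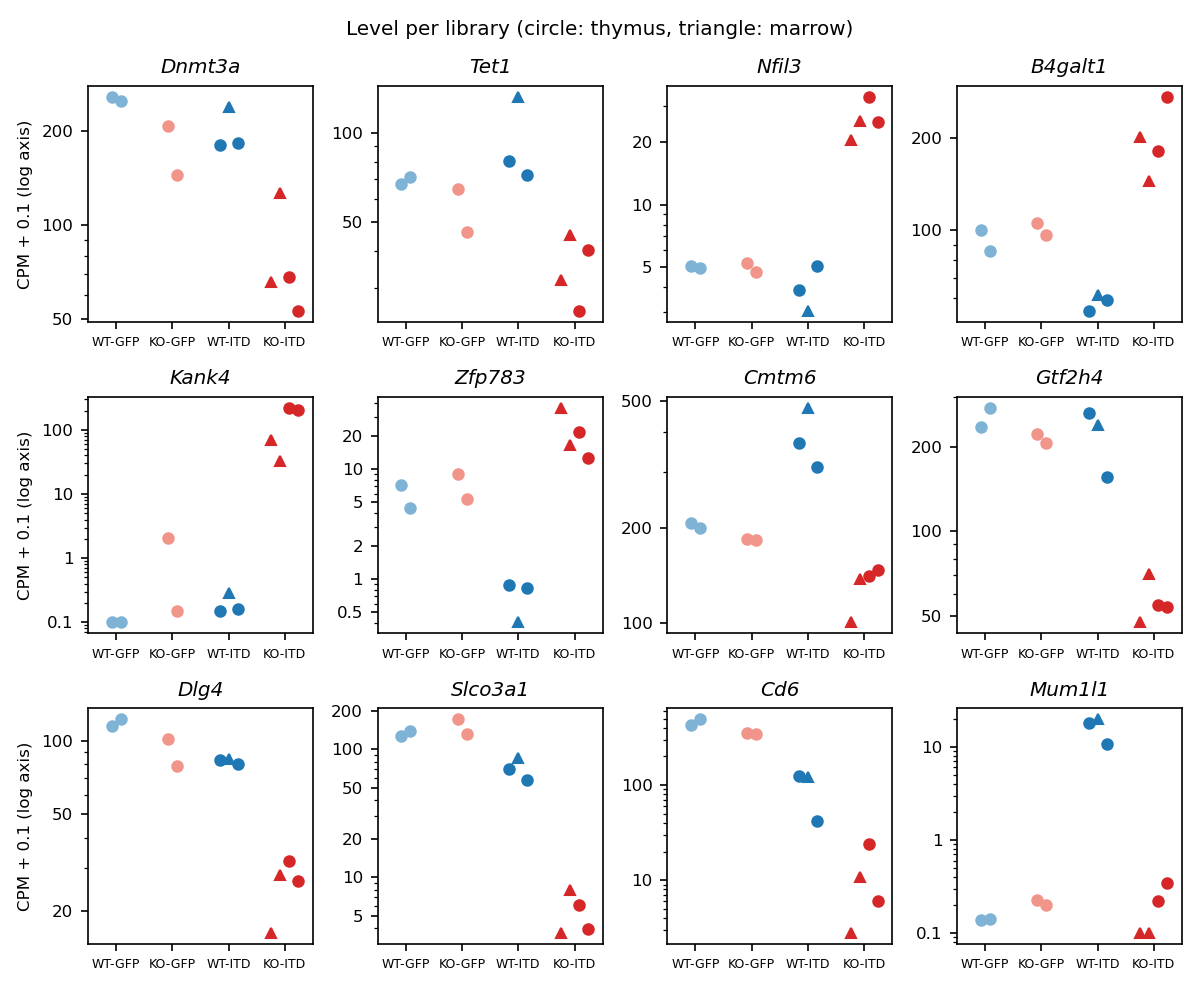
Level of 12 genes in each library (CPM + 0.1, log axis) by group, with circles for thymus and triangles for marrow. The 12 genes were picked from called genes without overlap, so their KO-ITD points lie wholly above or below the WT-ITD points, in both tissues. Nfil3 is at 20.4 to 33.2 CPM in KO-ITD, and no other library shown exceeds 5.11 CPM.

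Among the largest rises, Kank4 (chromosome 4, 98421583 to 98484228, minus strand), which encodes an ankyrin-repeat protein that links focal adhesions and the cytoskeleton, was at 0.049, 0.184 and 0.061 CPM in WT-ITD and at 68.5, 32.5, 222 and 206 CPM in KO-ITD. It was nearly absent from WT-ITD, with 5 counts in the 3 libraries against 4678 in the 4 KO-ITD libraries (log2 fold change 10.32, SE 1.28, adjusted p = 0.00553). In thymocytes the values were 0 and 0 CPM (WT-GFP) and 1.98 and 0.051 CPM (KO-GFP). The model of A730085A09Rik overlaps it on the opposite strand, and the counting is not stated to use strand. Zfp783 (chromosome 6, 47893174 to 47904548, plus strand), a KRAB-type zinc finger gene, was at 0.788, 0.306 and 0.737 CPM in WT-ITD and at 36.4, 16.8, 21.9 and 12.7 CPM in KO-ITD (log2 fold change 5.14, SE 0.69, adjusted p = 0.00582), and at 7.16 and 4.38 CPM in WT-GFP. It lies within a zinc finger cluster and overlaps Zfp956 on the same strand, so the split of reads between them is uncertain.

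Membrane lipid, calcium and glycan genes were also among the 12 largest rises by the naming rule. Cers4, which makes ceramides with long acyl chains, was at 0.443, 0.184 and 1.78 CPM in WT-ITD and at 7.13, 29.7, 79.6 and 104 CPM in KO-ITD (log2 fold change 6.10, SE 1.11, adjusted p = 0.0293). The 2 thymus libraries of KO-ITD were highest. Atp2a1, the SERCA1 calcium pump of muscle, was at 0.738, 0.368 and 0.061 CPM in WT-ITD and at 4.84, 4.29, 42.7 and 13.7 CPM in KO-ITD (log2 fold change 5.35, SE 0.99, adjusted p = 0.0324), highest in KO-ITD 3, and its model overlaps Rabep2 on the opposite strand. Chst11, a sulfotransferase for chondroitin, was at 3.15, 0.123 and 3.13 CPM in WT-ITD and at 18.6, 30.4, 22.9 and 95.1 CPM in KO-ITD (log2 fold change 4.28, SE 0.82, adjusted p = 0.0387), highest in KO-ITD 4. WT-GFP thymocytes lay between the groups for Cers4 (6.40 and 4.62 CPM) and Chst11 (10.4 and 10.8 CPM). For Atp2a1 they were within the WT-ITD range (0.6 and 0.689 CPM).

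Surface and secreted proteins were also among the rises. Pdgfrb, the beta receptor for platelet-derived growth factor that marks mesenchymal cells, was at 0.689, 0.184 and 0.859 CPM in WT-ITD and at 28.3, 18.7, 340.0 and 95.6 CPM in KO-ITD (log2 fold change 7.68, SE 1.15, adjusted p = 0.0117). The highest value was in KO-ITD 3, and the marrow libraries KO-ITD 1 and 2 were also far above WT-ITD. Thymocytes lay between the 2 groups, at 6.68 and 8.06 CPM (WT-GFP) and 4.98 and 4.71 CPM (KO-GFP). Cd93, a receptor of early hematopoietic and endothelial cells, was at 0.591, 0.49 and 1.35 CPM in WT-ITD and at 11.1, 21.9, 3.97 and 51.6 CPM in KO-ITD (log2 fold change 4.77, SE 0.80, adjusted p = 0.0195). Lgals1, the galactose-binding lectin galectin-1, was at 26.5, 17.3 and 31.4 CPM in WT-ITD and at 256, 85.5, 637 and 197 CPM in KO-ITD (log2 fold change 3.55, SE 0.65, adjusted p = 0.0293). WT-GFP thymocytes had 144 and 133 CPM of it, above WT-ITD and within the range of KO-ITD. The tetraspanin Tspan9 was at 9.16, 8.76 and 2.15 CPM in WT-ITD and at 122, 42.3, 74.7 and 78.4 CPM in KO-ITD (log2 fold change 3.56, SE 0.59, adjusted p = 0.0181). WT-GFP had 6.40 and 6.32 CPM of Cd93, above WT-ITD, and 12.4 and 6.73 CPM of Tspan9, below all KO-ITD libraries.

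Id1, an inhibitor of E protein transcription factors, rose from 1.48, 0.735 and 1.84 CPM in WT-ITD to 21.1, 24.8, 2.77 and 23.2 CPM in KO-ITD (log2 fold change 3.73, SE 0.72, adjusted p = 0.0405). KO-ITD 3 was only just above WT-ITD 3. Trim16, a tripartite motif protein of the stress response, was at 0.738, 0.245 and 0.737 CPM in WT-ITD and at 5.98, 3.08, 41.1 and 11.7 CPM in KO-ITD (log2 fold change 4.72, SE 0.84, adjusted p = 0.027), and the secreted C1q-like C1qtnf6 at 1.03, 0.368 and 2.7 CPM in WT-ITD and at 23, 9.95, 8.42 and 29.7 CPM in KO-ITD (log2 fold change 3.69, SE 0.69, adjusted p = 0.035). All 12 of these rises failed the test without WT-ITD 1, and all but Kank4 also failed without WT-ITD 2.

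Promoter windows of the 2 largest named rises and the 2 largest named falls, with Cers4 in place of Pdgfrb, are shown because CpG is the substrate of DNMT3A; no methylation was measured here. They are RefSeq windows on GRCm38.p6, not the mm9 build of the counts, from 250 bases before to 50 after the annotated start, read 5′ to 3′ on the gene's strand, with each CG in capitals. The motif CG reads the same on both strands, and 94.6% of 32851 such windows hold at least 1. The window of Kank4 (chr4:98817488-98817787, minus strand) holds 38 CG, a number reached by 5% of windows, and that of Cers4 (chr8:4493155-4493454, plus strand) holds 14, reached by 36.3%. Of the genes that fell, the first of 2 windows of Mum1l1 (chrX:139209794-139210093, plus strand) holds 17 CG, reached by 31.4%, and that of Cacna1e (chr1:154725871-154726170, minus strand) holds 11, reached by 41.4%. A comparison of CG numbers between lists is void because too few genes have a window, 25 of the 32 that rose (78.1%) and 78.2% of all genes tested.
Kank4: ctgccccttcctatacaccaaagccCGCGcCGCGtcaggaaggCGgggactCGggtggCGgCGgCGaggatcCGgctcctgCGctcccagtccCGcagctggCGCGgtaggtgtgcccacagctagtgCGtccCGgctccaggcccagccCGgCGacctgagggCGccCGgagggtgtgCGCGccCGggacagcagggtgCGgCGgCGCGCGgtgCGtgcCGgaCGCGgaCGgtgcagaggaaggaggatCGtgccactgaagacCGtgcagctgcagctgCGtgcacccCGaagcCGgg
Cers4: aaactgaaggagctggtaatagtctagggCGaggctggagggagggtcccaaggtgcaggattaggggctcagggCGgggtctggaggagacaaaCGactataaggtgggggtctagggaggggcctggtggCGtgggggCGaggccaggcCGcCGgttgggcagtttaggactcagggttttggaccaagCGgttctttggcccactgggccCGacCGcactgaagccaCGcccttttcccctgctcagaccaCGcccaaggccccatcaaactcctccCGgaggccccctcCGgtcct
Mum1l1: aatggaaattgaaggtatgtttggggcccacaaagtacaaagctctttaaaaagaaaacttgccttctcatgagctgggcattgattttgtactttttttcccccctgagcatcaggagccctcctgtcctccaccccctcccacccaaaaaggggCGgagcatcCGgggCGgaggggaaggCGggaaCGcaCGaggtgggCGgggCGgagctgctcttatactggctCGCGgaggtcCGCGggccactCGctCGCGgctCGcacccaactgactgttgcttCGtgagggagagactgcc
Cacna1e: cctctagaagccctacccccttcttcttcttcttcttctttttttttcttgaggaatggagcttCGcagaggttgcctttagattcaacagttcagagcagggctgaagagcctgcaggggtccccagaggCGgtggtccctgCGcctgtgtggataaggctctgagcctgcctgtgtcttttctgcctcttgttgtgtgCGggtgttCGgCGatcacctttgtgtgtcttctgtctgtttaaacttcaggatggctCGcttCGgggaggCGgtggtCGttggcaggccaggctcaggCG

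The genes that fell farthest were high in WT-ITD 1 and 2 and lower in WT-ITD 3. Of the 12 largest falls by the naming rule, all but Cdh24 and Slco3a1 failed the test both without WT-ITD 1 and without WT-ITD 2. Mum1l1 (chromosome X, 135744583 to 135772874, plus strand), which encodes a PWWP-domain protein, was at 18, 19.9 and 10.6 CPM in WT-ITD and at 0, 0, 0.12 and 0.243 CPM in KO-ITD. With 3 counts over the KO-ITD libraries against 863 over WT-ITD, its count ratio was 231.6 (95% counting interval 79 to 1125, counting error only; adjusted p = 0.0117). Thymocytes were also near 0, at 0.04 and 0.041 CPM (WT-GFP) and 0.128 and 0.101 CPM (KO-GFP). Cacna1e (chromosome 1, 156239649 to 156573050, minus strand), the pore subunit of R-type calcium channels, was at 33.4, 38.7 and 1.41 CPM in WT-ITD and at 0, 0.165, 0.601 and 0.121 CPM in KO-ITD (log2 fold change -6.78, SE 1.02, adjusted p = 0.0148). WT-GFP thymocytes had 50.9 and 63 CPM, so the level there was above that of all 7 leukemias.

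Esrp1, an epithelial splicing regulator, was at 255, 317 and 15.1 CPM in WT-ITD and at 0.891, 1.92, 7.34 and 2.31 CPM in KO-ITD (log2 fold change -5.98, SE 0.94, adjusted p = 0.0179). WT-ITD 1 and 2 were far above WT-ITD 3, which was nearest to KO-ITD 3. Sall3, a developmental zinc finger factor, was at 95.8, 111 and 20.3 CPM in WT-ITD and at 1.15, 1.7, 5.53 and 6.19 CPM in KO-ITD (log2 fold change -4.38, SE 0.73, adjusted p = 0.0194). Lmo4, a LIM-only transcriptional adaptor, was at 220.4, 215 and 25.5 CPM in WT-ITD and at 7.38, 8.68, 7.58 and 21.1 CPM in KO-ITD (log2 fold change -3.78, SE 0.61, adjusted p = 0.0158). The value of WT-ITD 3 was close to that of KO-ITD 4. Esrp1 and Sall3 were near 0 in WT-GFP thymocytes (0.48 and 0.527 CPM, and 0.16 and 0.203 CPM), whereas Lmo4 was at 70.2 and 72.7 CPM.

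Genes of lymphocyte signalling were among the falls. Cd6, a receptor that tunes T cell receptor signals and rises as DP cells mature, was at 126, 123 and 41.7 CPM in WT-ITD and at 2.67, 10.8, 24.1 and 5.95 CPM in KO-ITD (log2 fold change -3.15, SE 0.57, adjusted p = 0.0293). KO-ITD 3 was highest in its group. The scaffold gene Bank1, named for B cell receptor signalling, was at 89.6, 98.5 and 47.3 CPM in WT-ITD and at 3.31, 13.4, 21 and 9.35 CPM in KO-ITD (log2 fold change -2.73, SE 0.50, adjusted p = 0.0293). Ephb6, a kinase-dead ephrin receptor of thymocytes, was at 212, 222 and 75.7 CPM in WT-ITD and at 13.7, 42.3, 40.5 and 57.4 CPM in KO-ITD (log2 fold change -2.14, SE 0.42, adjusted p = 0.0421), with WT-ITD 3 nearest to KO-ITD. In WT-GFP thymocytes Cd6 was at 431 and 499 CPM and Ephb6 at 334 and 388 CPM, above all leukemias, and Bank1 at 5.24 and 8.14 CPM.

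The organic anion transporter Slco3a1 was at 70.3, 85.4 and 57.1 CPM in WT-ITD and at 3.56, 7.86, 6.01 and 3.88 CPM in KO-ITD. It had even levels within each group (log2 fold change -3.71, SE 0.54, adjusted p = 0.0109) and, among the fits that left out 1 leukemia library, lost its call only without WT-ITD 2; it did not pass in the 7 leukemias alone or by limma voom. Plcxd2, a phospholipase-like gene, was at 127, 171 and 51.7 CPM in WT-ITD and at 19.22, 32.7, 23 and 9.35 CPM in KO-ITD (log2 fold change -2.46, SE 0.40, adjusted p = 0.0169), and the nuclear receptor coactivator Ncoa7 at 127, 119 and 29.4 CPM in WT-ITD and at 15.8, 24.3, 8.3 and 19.05 CPM in KO-ITD (log2 fold change -2.44, SE 0.43, adjusted p = 0.0243). Over the 44 genes that fell, WT-ITD 3 was the lowest WT-ITD library in 37, a larger share than over all 15508 genes tested, where it was lowest in 5197.

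Tet1, a dioxygenase that oxidises methylcytosine and so starts demethylation, was at 80, 132 and 72 CPM in WT-ITD and at 31.8, 45.3, 25 and 40.3 CPM in KO-ITD. It fell with Dnmt3a (log2 fold change -1.41, SE 0.25, adjusted p = 0.0293), with WT-ITD 2 highest in both genes. These were the 2 called of 18 DNA methylation genes measured, and the list median was -0.08 against 0.07 for all genes. The maintenance methyltransferase Dnmt1 was at 277, 415 and 539 CPM in WT-ITD and at 416, 611, 361 and 148 CPM in KO-ITD (adjusted p = 0.907), with KO-ITD 4 lowest. Dnmt3b, the other de novo enzyme, was at 98.3, 109 and 67.8 CPM in WT-ITD and at 91.5, 118, 67 and 52.1 CPM in KO-ITD (log2 fold change -0.16, adjusted p = 0.834). Tet2 was at 1.72, 0.919 and 3.38 CPM in WT-ITD and at 2.04, 4.01, 27.9 and 28.5 CPM in KO-ITD (adjusted p = 0.141). Among the leukemias it was high only in KO-ITD 3 and 4, both from thymus and both of the later submission. The thymocytes had 39.5 and 36.3 CPM (WT-GFP) and 43.3 and 25.4 CPM (KO-GFP) of it. Tet3 was at 191, 304 and 215 CPM in WT-ITD and at 123, 224, 188 and 139 CPM in KO-ITD (adjusted p = 0.397).

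Outside the naming rule, the other genes called include enzymes and regulators that were picked for mention after their values were seen. Fbp1, the gluconeogenic fructose-1,6-bisphosphatase, was at 16.4, 15.6 and 28.1 CPM in WT-ITD and at 237, 166, 119.8 and 175 CPM in KO-ITD (log2 fold change 3.12, SE 0.47, adjusted p = 0.0122). The thymocytes had 0.64 and 1.5 CPM (WT-GFP) and 1.34 and 0.506 CPM (KO-GFP). Il3ra, the alpha chain of the interleukin-3 receptor, was at 2.31, 1.66 and 2.46 CPM in WT-ITD and at 10.4, 7.09, 9.14 and 15.5 CPM in KO-ITD (adjusted p = 0.0098). WT-GFP had 8.12 and 6.73 CPM of Il3ra, above WT-ITD. Aim2, a sensor of cytosolic DNA, was at 1.82, 0.368 and 3.5 CPM in WT-ITD and at 8.27, 28, 26.6 and 12.6 CPM in KO-ITD (adjusted p = 0.045), and thymocytes had 21.2 and 27.8 CPM (WT-GFP) and 22.1 and 23.7 CPM (KO-GFP). Vegfa, the vascular growth factor, was at 121, 141 and 93.7 CPM in WT-ITD and at 47.1, 45.7, 46.8 and 22.2 CPM in KO-ITD (adjusted p = 0.0241) and at 4.68 and 4.54 CPM in WT-GFP.

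Among the genes that fell and were likewise picked after their values were seen, Smarca2, an ATPase of SWI/SNF remodellers, was at 178, 215 and 114 CPM in WT-ITD and at 52.4, 66, 83.6 and 45.3 CPM in KO-ITD (log2 fold change -1.45, adjusted p = 0.0195). Arntl, the BMAL1 circadian factor, was at 69.9, 86.8 and 70.2 CPM in WT-ITD and at 37.7, 41.2, 22.5 and 26 CPM in KO-ITD (-1.25, adjusted p = 0.0181). The translesion polymerase gene Rev1 was at 52.5, 48.7 and 43.1 CPM in WT-ITD and at 30.2, 23.4, 25.6 and 28.2 CPM in KO-ITD (-0.84, adjusted p = 0.0315). Hlcs, which attaches biotin to carboxylases, was at 85.8, 110.4 and 94 CPM in WT-ITD and at 26.5, 32.9, 15 and 36.5 CPM in KO-ITD (-1.80, adjusted p = 0.00854). Itpkb, an inositol kinase needed for DP cell selection, was at 124, 157 and 111 CPM in WT-ITD and at 51.5, 71.8, 43.3 and 51.6 CPM in KO-ITD (-1.26, adjusted p = 0.0152), with 294 and 318 CPM in WT-GFP. Mr1, which presents metabolites to MAIT cells, was at 98.8, 102 and 119.8 CPM in WT-ITD and at 30.4, 48, 35.6 and 47.2 CPM in KO-ITD (-1.41, adjusted p = 0.032). Of the 76 genes, 15 overlap a model on the opposite strand, Dnmt3a, Smarca2, Rev1 and Itpkb among them, and their reads cannot be told apart without strand.

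Set beside normal thymocytes, the called genes did not all stand alike. WT-GFP lay above all 7 leukemias for 19 of the 44 genes that fell, below all of them for 3, and under 1 CPM for 3. For the 32 genes that rose, WT-GFP was nearer to the WT-ITD than to the KO-ITD mean in 20 and under 1 CPM in 5. Such counts were not made over all genes tested, so they are not read as particular to the called genes. No gene was called between KO-GFP and WT-GFP (0% of 15508; 74 at an unadjusted p below 0.05, and 12 by DESeq2), where 40 of the 76 had the same sign as in leukemia. The difference between the leukemia and the thymocyte effect of Dnmt3a loss was called for 0 genes (0%; 838 at an unadjusted p below 0.05; smallest adjusted p 0.299; 81 by DESeq2), so the data do not show that any of the 76 effects differed between leukemia and thymocytes. The fit without WT-ITD 3 called 39 genes there.

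**Figure D3:**
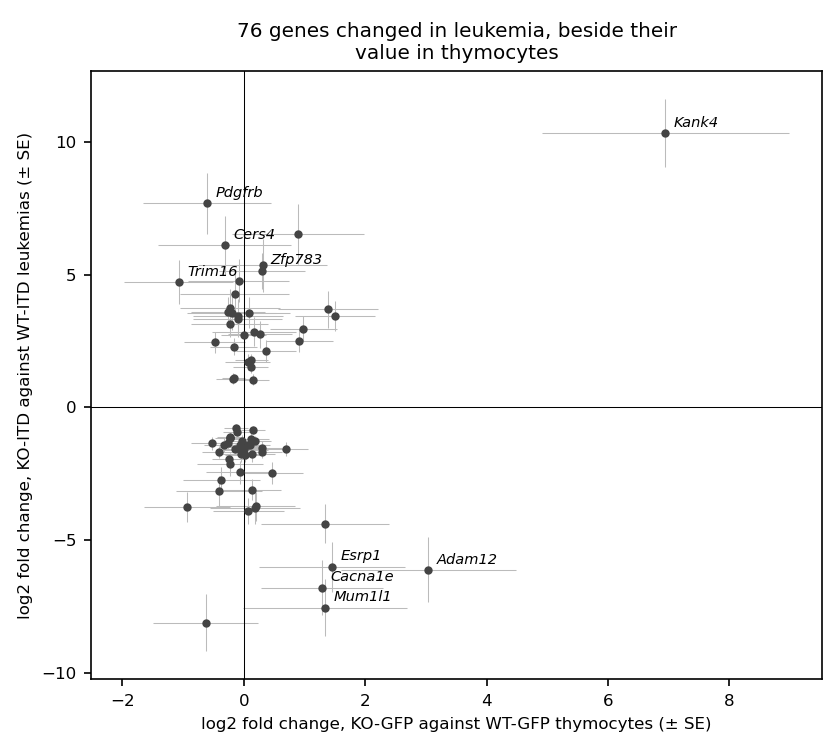
Fitted log2 fold change (± SE) of the 76 genes in leukemia (vertical, KO-ITD against WT-ITD) and in thymocytes (horizontal, KO-GFP against WT-GFP). Most points lie near 0 on the horizontal axis; Kank4 lies at 6.95, a value that depends on the fit since both WT-GFP libraries had no count.

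Most genes of the DP stage had lower fitted levels in KO-ITD. Of 43 measured, 38 had a negative fold change, 15 were lower at an unadjusted p below 0.05 and 1, Cd6, passed over all genes; the list median was -0.63 against 0.07 for all genes. For this and the following lists, the background over all genes tested is 0.49% called. At an unadjusted p below 0.05 by edgeR, it is 12.2% higher and 8.08% lower. Members of this and the following lists that did not pass and are not in the fixed set of named genes were picked after their values were seen. The costimulatory receptor Cd28 was at 67.9, 117 and 133 CPM in WT-ITD and at 31.3, 20, 36.9 and 5.22 CPM in KO-ITD (log2 fold change -2.18, adjusted p = 0.0942), with all KO-ITD libraries below WT-ITD. Cd5 was at 18.1, 19.5 and 28.5 CPM in WT-ITD and at 5.86, 6.71, 9.14 and 1.82 CPM in KO-ITD (adjusted p = 0.0701), whereas the CD3 chains Cd3d, Cd3e and Cd3g had log2 fold changes of -0.01, -0.16 and 0.08. The recombinase genes Rag1 (1820.2, 2883 and 3938 CPM in WT-ITD and at 2053, 3779, 269 and 1363 CPM in KO-ITD) and Rag2 overlapped between the groups, with KO-ITD 3 lowest in both. Summed over the list, the level was 18390, 21400 and 22670 CPM in WT-ITD and 15850, 17820, 11540 and 10760 CPM in KO-ITD. Cd4 and Cd5 passed with Cd6 in the fit without KO-ITD 4 and in that without KO-ITD 2. In these fits 0.527% and 2.23% of all genes fell. Ccr9 and Runx3 passed with Cd6 without KO-ITD 3, and Cd6 alone passed without KO-ITD 1 or without WT-ITD 3. No DP gene passed without WT-ITD 1 or without WT-ITD 2. In bulk RNA, fewer DP cells and less of these RNAs per cell cannot be told apart.

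Stromal, macrophage and megakaryocyte markers mostly had positive fold changes, but their summed levels overlapped between the groups. Of 35 stromal genes measured, 31 had a positive fold change and 22 were higher at an unadjusted p below 0.05, with a median of 3.47; only Pdgfrb passed over all genes, and its value in KO-ITD 3 was above that in KO-ITD 4. Summed stromal levels were 1416, 1461 and 2303 CPM in WT-ITD and 1833, 1360, 4186 and 6446 CPM in KO-ITD. A sum follows the most abundant members, so it need not follow the list as a whole. Mean log2 CPM over the stromal list was 0.668, -0.961 and 2.74 in WT-ITD and 2.48, 1.84, 3.72 and 5.9 in KO-ITD. By this measure too, WT-ITD 3 was above KO-ITD 1 and 2. The collagen chain Col1a1 was at 6.99, 1.66 and 17.3 CPM in WT-ITD and at 57, 31.6, 41.3 and 513 CPM in KO-ITD (adjusted p = 0.114). All 27 monocyte and macrophage genes had a positive fold change (median 3.29, 19 at an unadjusted p below 0.05, 0 passed over all genes). Their sum was 246, 78.2 and 922 CPM in WT-ITD and 868, 418, 1064 and 10730 CPM in KO-ITD, and the macrophage receptor Csf1r was at 3.99, 0.735 and 23.8 CPM in WT-ITD and at 16.9, 7.47, 9.14 and 306 CPM in KO-ITD. All 15 megakaryocyte genes also had a positive fold change (median 1.71, 0 passed). The stromal and macrophage sums were highest in KO-ITD 4: without it the medians were 1.66 and 0.95, and 8 and 6 genes were higher at an unadjusted p below 0.05. In that edgeR fit, 2540 of 15175 genes were below an unadjusted p of 0.05 in either direction.

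Leaving out KO-ITD 4 kept 74 of the 76 calls; the glycosyltransferase gene B3gnt2 and the palmitoyltransferase gene Zdhhc18 were lost. KO-ITD 4 was the highest library in 12 of the 32 genes that rose, KO-ITD 1 in 10, KO-ITD 3 in 8 and KO-ITD 2 in 2. Summed erythroid markers ranged from 619.7 to 1920 CPM in WT-ITD and from 1190 to 3038 CPM in KO-ITD, megakaryocyte markers from 18.4 to 68.6 and 47.8 to 398, granulocyte markers from 169.6 to 1291 and 351 to 1960, B cell markers from 116 to 229 and 301 to 355, NK and cytotoxic markers from 316 to 491 and 385 to 3339, and dendritic markers from 201 to 1996 and 274 to 1312. Much of the B cell sum in WT-ITD 1 and 2 was Bank1, at 89.6 and 98.5 CPM. In KO-ITD 1 and 2 much of it was Spib, an ETS factor given below. By mean log2 CPM, the B cell list overlapped between the groups (0.163, -0.679 and 2.74 in WT-ITD, and 0.918, 0.292, 2.89 and 1.63 in KO-ITD). The epithelial keratin Krt5 was at 0, 0 and 7.67 CPM in WT-ITD and at 0, 0, 2.65 and 9.35 CPM in KO-ITD. The part of these cells in the differences between KO-ITD and WT-ITD was not tested.

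**Figure D4:**
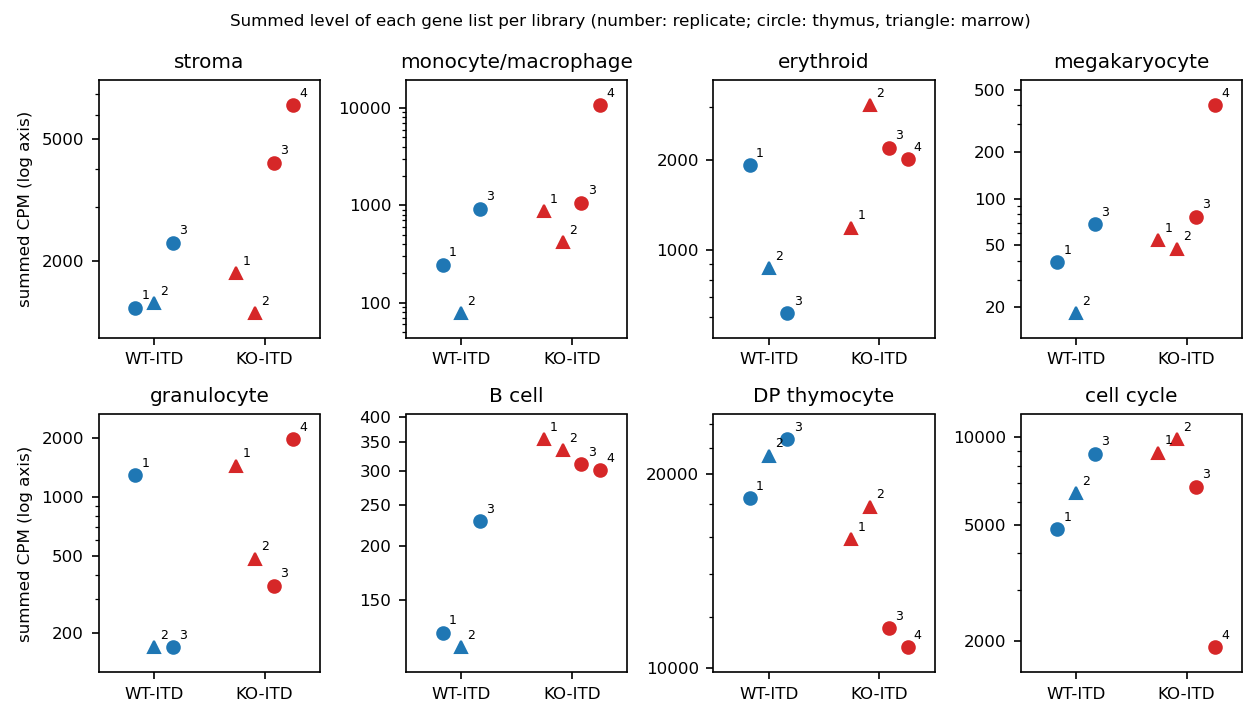
Summed CPM (log axis) of the measured genes of 8 lists in each leukemia library, by group; the number is the replicate, circles are thymus and triangles marrow. KO-ITD 4 is highest for stromal, macrophage, megakaryocyte and granulocyte genes and lowest for DP and cell cycle genes.

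Genes of early T progenitors had no call among 24 measured, with 17 positive and a median of 1.07. Cpa3, a mast cell and progenitor protease, was at 8.91, 1.72 and 2.95 CPM in WT-ITD and at 97.7, 10.9, 299 and 116 CPM in KO-ITD (log2 fold change 4.84, adjusted p = 0.0743), and Il7r, the interleukin-7 receptor, at 1.23, 0.858 and 57 CPM in WT-ITD and at 228, 56.8, 95.6 and 64.1 CPM in KO-ITD (adjusted p = 0.245), low in WT-ITD 1 and 2 only. The stem cell factor receptor Kit was at 5.71, 0.368 and 9.39 CPM in WT-ITD and at 23.8, 4.67, 80.9 and 10.6 CPM in KO-ITD (adjusted p = 0.195) and the stem cell antigen Cd34 at 0.689, 0.123 and 1.66 CPM in WT-ITD and at 2.93, 0.495, 1.92 and 26.3 CPM in KO-ITD (adjusted p = 0.192). Among Notch genes, Notch1 was at 2436, 3053 and 974 CPM in WT-ITD and at 1339, 2541, 382 and 1572 CPM in KO-ITD (adjusted p = 0.562), Notch3 had a log2 fold change of -0.21 (adjusted p = 0.866), and their target Hes1 was at 21.6, 21.7 and 14.8 CPM in WT-ITD and at 53.7, 71.4, 18.2 and 54.7 CPM in KO-ITD (adjusted p = 0.172). KO-ITD 3 was lowest of its group in all 3. Il2ra, the CD25 chain of immature thymocytes, was at 2639.9, 3412 and 1116 CPM in WT-ITD and at 1709, 2123, 629 and 1390.3 CPM in KO-ITD (adjusted p = 0.536).

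Of 39 genes of the STAT5 and MAPK response, 1 rose (Id1) and 0 fell, with a median of -0.26. Of 42 T cell receptor signalling genes, 1 fell (Cd6, counted above), 12 were lower at an unadjusted p below 0.05, and the median was -0.13. None of 44 cell cycle genes passed by edgeR, and 0 were below an unadjusted p of 0.05; their sum was 4843, 6449 and 8791 CPM in WT-ITD and 8873, 9844, 6777 and 1901 CPM in KO-ITD, with KO-ITD 4 far below the rest. Of 32 MYC and ribosome biogenesis genes 0 passed (1 at an unadjusted p below 0.05, median 0.19), and Myc was at 124, 152 and 168 CPM in WT-ITD and at 268, 283, 133 and 190.1 CPM in KO-ITD (log2 fold change 0.56, adjusted p = 0.22). The survival gene Bcl2 was at 305, 385 and 778 CPM in WT-ITD and at 314, 427, 1265 and 405 CPM in KO-ITD (adjusted p = 0.757), highest in KO-ITD 3, and the cell cycle inhibitor Cdkn1a at 5.71, 0.797 and 22.6 CPM in WT-ITD and at 16.7, 35.8, 74.6 and 87.6 CPM in KO-ITD (adjusted p = 0.171).

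The HOX list, whose 25 measured genes include MEIS and PBX cofactors, had no call. Hoxb4 was at 4.92, 5.27 and 4.24 CPM in WT-ITD and at 1.4, 1.65, 0.722 and 1.46 CPM in KO-ITD, lower in every KO-ITD library (log2 fold change -1.87, adjusted p = 0.0949). Hoxa9 was at most 0.295 CPM and Meis1 at most 0.728 CPM in the 7 leukemias, too low for a difference to be detectable at this depth. Of 33 imprinted genes, 25 had a positive fold change and 0 passed (5 at an unadjusted p below 0.05). By edgeR, 0 of 37 interferon genes, 0 of 24 glycolysis genes, 0 of 21 cholesterol genes and 0 of 14 germline genes passed. At an unadjusted p below 0.05, 2 interferon genes were higher and 5 lower, and 4 glycolysis genes higher and 3 lower. Of the cholesterol genes 0 were higher and 2 lower, and of the germline genes 4 higher and 0 lower. Over all genes tested 0.49% were called, so 0 calls in lists of this size is near the overall share.

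**Figure D5:**
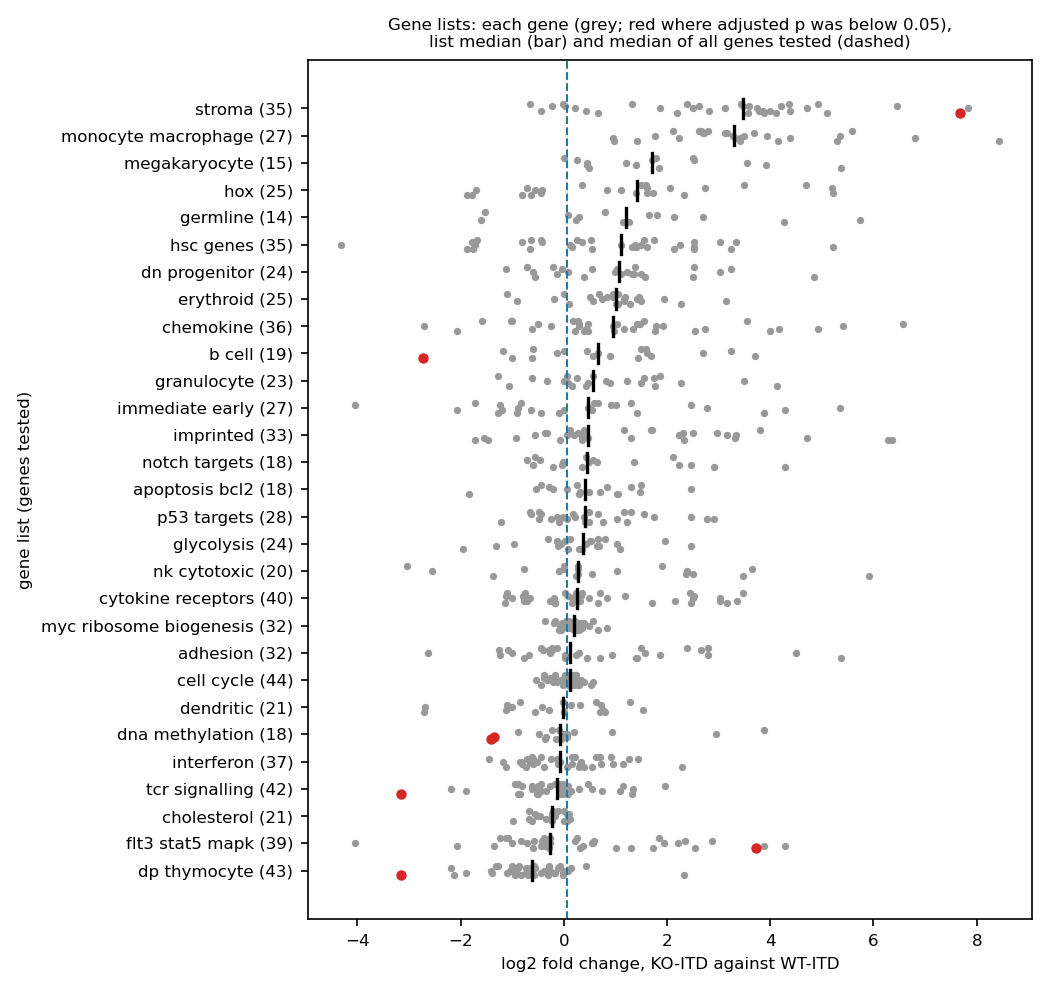
Fitted log2 fold change of each measured gene in 29 gene lists (grey; red where the adjusted p was below 0.05), with the list median as a bar and the median of all genes, 0.07, as a dashed line. The stromal (3.47) and macrophage (3.29) medians are farthest to the right and the DP thymocyte median (-0.63) farthest to the left.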

How the data were processed

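The authors deposited 1 table of estimated counts per gene for all 17 libraries; the tools named in the submitters' processing notes are TopHat2 2.0.10, Cufflinks 2.1.1 (no version for the later records) and Cuffdiff 2.1.1 or 2.2.1, with the build mm9. Which step wrote the table, and whether it used strand, is not stated. Gene positions are from the deposited gene models, 1-based. Of the nonzero deposited estimated counts, 98.12% to 98.54% were whole within 0.001, and all were rounded. In R 4.3.3, edgeR 4.0.16 (filterByExpr defaults, TMM factors 0.943 to 1.076) fitted 7 group means to 17 libraries by quasi-likelihood; two-sided p-values of 15508 genes were adjusted after Benjamini-Hochberg and called below 0.05. CPM uses TMM-scaled library sizes. Alternatives used DESeq2 1.42.0, limma 3.58.1 and other libraries, scalings and terms. The FPKM files were not used.

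The genes named are the 12 largest rises and falls with an adjusted p below 0.05, a mean of 5 CPM or more in the higher group and no overlap (predicted and numbered gene names left out), called members of gene lists, genes passing in every leave-one-out fit, and a fixed set; exceptions are stated. The members, lists and comparison were chosen with earlier results of these data known, so no list is independent evidence. Total counts per library limit precision, and counting intervals cover counting error only. Some members of the lists are not reported here by name.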

Additional observations from a re-analysis of the deposited data

Results flagged for a closer look

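In the 4 KO-ITD libraries, the gap of the highest or lowest library to its nearest neighbour, as a share of the range of log2 CPM, was set against Dixon's 95% critical value for 4 samples in 85 named genes and list means, and 11 exceeded it. Chance flags about 1 in 20 such groups. KO-ITD 2 stood apart in Xist (gap share 1), Ddx3y (0.954) and the mean of the sex-linked list (0.954). It was also the highest library in the mean level of erythroid genes (0.896), where the red cell anion exchanger Slc4a1 had 67.6, 458, 96 and 197 CPM across KO-ITD 1 to 4. KO-ITD 4 stood apart in the mean of megakaryocyte genes (0.929), in Lmo4 (0.846), where it was highest at 21.1 CPM, and in Gm14446 (0.863) and Kansl1l (0.835), where it was lowest. KO-ITD 3 was low in Id1 (0.925), at 2.77 CPM. KO-ITD 1 was low in Cmtm6 (0.838), at 101 CPM, and was the only KO-ITD library with a Hoxa9 count (1). The calls for Cmtm6, Gm14446 and Kansl1l held without each of these libraries, and that for Id1 without KO-ITD 3.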

How the results depend on the processing

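Of the alternatives for KO-ITD against WT-ITD (76 genes), DESeq2 called 1314 genes and limma voom 185. The 7 leukemias alone, the first submission alone, Sca-1 donors alone, a sex term, the libraries without Xist alone and a replicate block each called 0 genes (1526, 1559, 536, 1222, 2452 and 1957 at an unadjusted p below 0.05 by edgeR). A term for collection tissue called 4, the thymus libraries alone 1 and the marrow libraries alone 878. Leaving out a leukemia library gave 10 to 641. Chosen after seeing the data, leaving out WT-ITD 3 and KO-ITD 2 gave 1532 and summing WT-ITD 1 and 2 gave 13. The 11 retroviral libraries alone (55), no filter (80), RLE scaling (68) and unscaled library totals (76) stayed within 1.5 times the main count. At least 74 of the 76 genes kept their sign under each of these, and no called gene named here changed sign. Genes that the low-count filter removed from a fit count as not kept. A kept sign in a subset of the libraries was largely fixed in advance for the 75 genes whose groups did not overlap. Genes that were not called, such as Dnmt1, Dnmt3b, Notch3, Bcl2, Hoxa9 and Xist, did change sign under some settings. DESeq2 called 12 genes between KO-GFP and WT-GFP and 81 for the difference of the effects, where leaving out a library gave 0 to 39 (39 without WT-ITD 3). The cause of these differences between settings was not tested. The replicate numbers are shared by the groups, but same-numbered libraries deviated together at r of 0.159, 0.369 and 0.082, so they were not treated as pairs, and not every library correlated best with its own number (WT-ITD 3 and KO-ITD 1 did not). KO-ITD 1, 3 and 4 had 8184576, 8597919 and 7660541 counts, which limits low genes there.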

Other observations

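The genes given here were chosen after their values were seen. Spib, an ETS factor of B cells and plasmacytoid dendritic cells, was at 3.05, 2.94 and 29.8 CPM in WT-ITD and at 241, 257, 15.8 and 109 CPM in KO-ITD (adjusted p = 0.116 by edgeR's quasi-likelihood test), and Cd79b, a B cell receptor chain also made by immature thymocytes, at 3.35, 0.981 and 23.5 CPM in WT-ITD and at 52.7, 35.3, 72.8 and 80.3 CPM in KO-ITD (adjusted p = 0.121). KO-ITD 1, 2 and 4 had much Spib, and KO-ITD 3 less than WT-ITD 3. Adam12, a metalloprotease, was the called gene whose groups overlapped, with 286, 323 and 1.41 CPM in WT-ITD and at 1.66, 0.66, 3.13 and 6.67 CPM in KO-ITD (log2 fold change -6.11, adjusted p = 0.0486), and WT-ITD 3 was within the KO-ITD range. In thymocytes its values were 10.3 and 27.2 CPM (WT-GFP) and 158 and 151 CPM (KO-GFP). The divergent neighbours Fam84b and 9930014A18Rik rose together, but their models overlap on opposite strands, so that their reads cannot be told apart without strand.

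Without WT-ITD 3 and KO-ITD 2, the libraries that expressed Xist, 1532 genes passed and the lists held more calls. Of 35 stromal genes 15 rose, of 27 monocyte and macrophage genes 11 and of 21 dendritic and MHC class II genes 8. Of 36 chemokine and receptor genes 7 rose and of 37 interferon genes 6, while 6.33% of all genes rose. WT-ITD 3 had the highest sum of WT-ITD in each of these lists. KO-ITD 2 had the lowest sum of KO-ITD in all but the interferon list, so leaving both out favours rises here. WT-ITD was then the alike libraries 1 and 2 alone. With all 7 leukemias, 0 dendritic, 0 chemokine and 0 interferon genes were called, and the dendritic median was -0.02. Of 43 DP thymocyte genes 2 fell (Cd6 and Plxnd1), beside 3.61% of all genes.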
